A study of Mus musculus with 16 samples.

Results

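The 10 genes described here encode proteins that hepatocytes secrete into the blood. They are Trf (transferrin), Alb (albumin), Afp (alpha-fetoprotein), Ttr (transthyretin), the apolipoprotein genes Apoa1, Apoa2, Apob and Apoe, Fgb (the fibrinogen beta chain) and Ahsg (fetuin-A). They were chosen by name, as a list of secreted liver products, and all 10 had a count in the matrix of 40840 mouse genes. RNA was sequenced from cultured p53-/-; Myc hepatoblasts, a single mouse cell line that lacks p53 and overexpresses Myc and that the labels give the cell type HCC (hepatocellular carcinoma). Cells received sorafenib, a multikinase inhibitor given to patients with liver cancer, at 8.5 µM, or DMSO, its solvent, for 48 hours or for 7 days. There were 4 replicates in each of these 4 groups, 16 libraries in all, and the controls carried the same p53 loss and Myc overexpression as the treated cells. Nothing in the labels says that the replicates were separate cultures, so the p-values measure only the spread between these samples, which may be technical.

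The liver makes most of the protein in plasma, and the genes for these proteins are among the most active in mature hepatocytes. Hepatoblasts, the fetal precursors of hepatocytes and bile duct cells, already transcribe several of them, with Afp as the classical fetal product, which is silenced after birth and often returns in liver tumors. Transcription factors of the HNF4, FOXA and C/EBP families drive many of these genes in the liver, while Apoe and Trf are also transcribed in other tissues.

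Libraries held 16586254 to 30828427 counts on genes. The library of sorafenib 48 hours replicate 2 stood apart from the rest of its group, since its counts on chromosomes 15 to 19 and X were, by the median gene of each chromosome, 0.641 to 0.65 of those of the other replicates, against 1.06 to 1.07 on chromosomes 1 to 13. Of the 10 genes, Ahsg and Ttr lie in that region, whereas Trf, Apoe, Afp, Alb and the other members lie outside it. By the chi-squared statistic per gene between pairs of replicates, DMSO 7 days replicate 4 stood apart as well. Its pairs had 41.4 to 55.0, and the other pairs of that group 1.78 to 2.79. Sorafenib 48 hours replicate 2 had 27.0 to 30.7, against 2.24 to 5.02 among the others. In DMSO at 48 hours, replicates 1 and 4 (4.19) and 2 and 3 (4.83) were alike, and the other pairs had 14.4 to 32.7. A gene was taken as expressed in a group when all 4 libraries had at least 1 CPM, where CPM are counts scaled to an effective library total of 1000000. Of 9 hepatoblast markers, 5 were expressed in every group (Dlk1, Gpc3, Krt8, Krt18 and Cdh1), Hnf4a had no count in any of the 16 libraries, and Afp and Alb are described in what follows. Of 12 markers of mature hepatocytes, 1 was expressed (Ass1), in every group. Of 9 mesenchymal and stellate cell markers, 8 were expressed in at least 1 group and 7 in every group. These markers had summed levels of 5530 to 5650 CPM in DMSO at 48 hours. The name hepatoblast therefore rests here on the labels and on 5 of its 9 markers.

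The promoters of 3 members are shown because they belong to a silent, a trace-level and an expressed gene of the set. Each is the 250 bases before the transcription start in RefSeq (table on GRCm38.p6), written 5′ to 3′ on the gene's strand, and its place in GRCm39 was found by an exact match. Alb is at chr5:90608479-90608728 (plus strand), Afp at chr5:90638323-90638572 (plus strand) and Apoe, at the first of 3 listed starts, at chr7:19433114-19433363 (minus strand). Capitals mark matches, on either strand, to 3 motifs that do not overlap one another here. They are TATAAA, which is the usual TATA box, the CCAAT box, whose name spells it, and lastly the GC box, which was searched as GGGCGG.
Alb: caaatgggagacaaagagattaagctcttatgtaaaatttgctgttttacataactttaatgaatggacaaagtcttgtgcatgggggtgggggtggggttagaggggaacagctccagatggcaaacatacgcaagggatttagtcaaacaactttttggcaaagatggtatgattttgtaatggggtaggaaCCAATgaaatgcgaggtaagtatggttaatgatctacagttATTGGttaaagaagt
Afp: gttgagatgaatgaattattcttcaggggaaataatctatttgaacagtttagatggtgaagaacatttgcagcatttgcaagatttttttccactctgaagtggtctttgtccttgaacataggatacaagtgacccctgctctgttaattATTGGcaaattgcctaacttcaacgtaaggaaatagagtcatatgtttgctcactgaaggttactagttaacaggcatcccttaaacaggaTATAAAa
Apoe: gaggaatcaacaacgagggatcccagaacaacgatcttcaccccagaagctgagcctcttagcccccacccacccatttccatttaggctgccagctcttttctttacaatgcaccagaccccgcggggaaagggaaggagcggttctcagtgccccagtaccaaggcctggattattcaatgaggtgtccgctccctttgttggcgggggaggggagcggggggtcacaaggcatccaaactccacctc
Counted from the RefSeq start, the TATA box was found in Afp at bases 7 to 2 before it. The CCAAT box was found in Alb at bases 56 to 52 and, on the other strand, at bases 15 to 11. In Afp the CCAAT box was found on the other strand at bases 98 to 94. The canonical starts in the GENCODE annotation lie further downstream, at chr5:90638584 for Afp and chr5:90608749 for Alb. Counted from those, the distances would be longer. The Alb window also lies partly within the GENCODE span of Alb, which begins at chr5:90608647. None of the 3 motifs matched in the Apoe window shown. At the second of its starts the TATA box matched at bases 96 to 91 and, on the other strand, at bases 100 to 95, and at the third none matched. Among 32851 RefSeq promoters of the same length, 12.4% held the TATA box, 33.8% the CCAAT box and 32.7% the GC box. Of the 10 genes, 8 had a promoter in that collection, and Trf and Ttr did not. A match is a description of the letters, not a measured binding site.

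A gene that was not expressed was taken as a trace when all 4 libraries had more than 3 counts, and otherwise as at or near the floor of 3 counts. By these measures 2 of the 10 genes, Trf and Apoe, were expressed in these hepatoblasts, and both were expressed in all 4 groups. Apoa2 was a trace in all 4 groups, Ahsg in 3 and Afp in 1, DMSO at 7 days. Alb, Ttr, Apoa1, Apob and Fgb were at or near the floor in every group. Over all 16 libraries the levels, with no correction for length, were 43.9 CPM for Apoe, 37.6 for Trf, 0.927 for Apoa2, 0.527 for Ahsg, 0.15 for Afp and 0.0515 for Apoa1. Ttr was at 0.0294, Apob at 0.0147, Alb at 0.00736 and Fgb at 0.00245, where 3 counts over all libraries make 0.00736. Trf and Apoe together held 98.7% to 99.0% of the counts of the 10 genes in DMSO at 48 hours and 90.0% to 91.6% in sorafenib at 7 days.

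**Figure D1:**
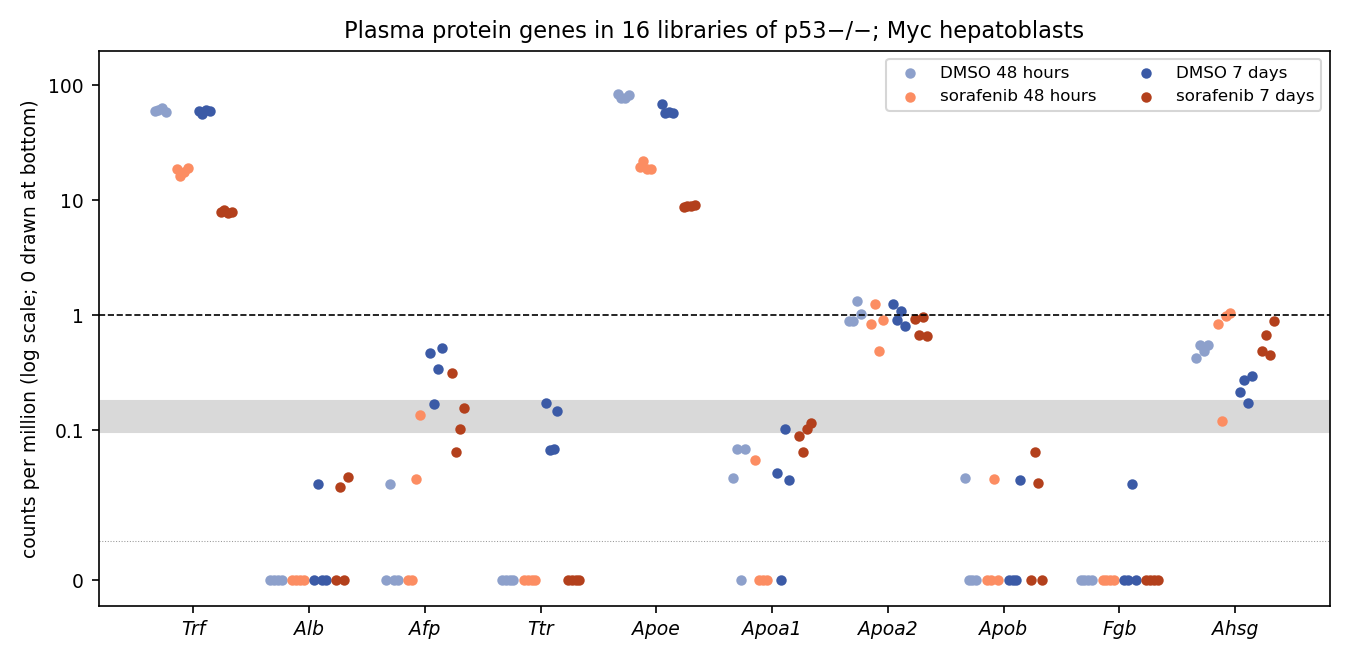
Level of each of the 10 genes in each of the 16 libraries, in CPM on a log axis, with libraries at 0 drawn at the bottom under a dotted line and colored by group. The dashed line marks 1 CPM and the gray band the CPM that 3 counts make in a single library; only Trf and Apoe lie wholly above the dashed line, at 37.6 and 43.9 CPM over all libraries.

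The summed level of the 10 genes ranged from 140 to 145 CPM in DMSO at 48 hours and from 115 to 131 CPM in DMSO at 7 days. With sorafenib it was 38.0 to 40.0 CPM at 48 hours and 18.3 to 18.9 CPM at 7 days. The treated and control libraries did not overlap at either time, and this sum was almost wholly that of Trf and Apoe. These are bulk samples, in which fewer cells of a type and less RNA per cell cannot be told apart.

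Of the 10 genes, 7 had the 10 counts in total that were required for a test, and Alb, Apob and Fgb did not. Ttr passed that filter through a single group, DMSO at 7 days, so that its calls against groups at 0 were fixed by the filter and are no support for a change. Sorafenib was compared with DMSO at each time to ask which of these genes respond to the drug. At 48 hours, 2 of the 7 tested genes were called, Trf and Apoe, and both fell, where 54.6% of the 20444 genes tested were called and 27.7% fell. At 7 days, 5 of the 7 were called, with Ttr among them through that filter. Of the other 4, Trf, Apoe and Afp fell and Ahsg rose, where 56.8% of all genes were called, 28.9% rose and 27.9% fell. A share of members near these backgrounds is no result about the set, and the sizes of the changes are given gene by gene.

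Trf encodes transferrin, which binds ferric iron in plasma and delivers it to cells through the transferrin receptor. It lies on the minus strand of chromosome 9 (chr9:103081200-103107814, GRCm39). Its normalized counts in the 4 DMSO libraries of 48 hours were 1495, 1529, 1588 and 1474, and in those of 7 days 1502, 1411, 1540 and 1493. With sorafenib they were 469, 407, 441 and 478 at 48 hours and 198, 208, 195 and 198 at 7 days. Every treated library was below every control library, and the 7-day treated libraries were the lowest of all. Group means were 1521 ± 49.6 (SD, n = 4) and 449 ± 32.1 at 48 hours, a log2 fold change of -1.76 (SE 0.0488, FDR 7.45e-17 by the quasi-likelihood test of edgeR, adjusted by Benjamini-Hochberg over all genes tested), or 3.38-fold lower. At 7 days they were 1486 ± 54.3 and 200 ± 5.66, a log2 fold change of -2.89 (SE 0.0526, FDR 1.12e-19), or 7.43-fold lower. With 1 library left out at a time the 48-hour value stayed between -1.82 and -1.72 and the 7-day value between -2.92 and -2.88.

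Apoe encodes apolipoprotein E, the ligand through which remnant lipoproteins bind receptors on cells. It lies on the minus strand of chromosome 7 (chr7:19430034-19434947, GRCm39), and the promoter shown lies within that span, which GENCODE extends to an upstream start. Its normalized counts with DMSO were 2108, 1961, 1955 and 2092 at 48 hours and 1733, 1439, 1475 and 1441 at 7 days. With sorafenib they were 494, 549, 476 and 468 at 48 hours and 219, 225, 224 and 229 at 7 days. The 4 groups did not overlap, and in DMSO at 7 days replicate 1 was above the other 3. The means were 2029 ± 82.5 and 497 ± 36.5 at 48 hours, a log2 fold change of -2.04 (SE 0.0615, FDR 2.78e-16), or 4.10-fold lower with sorafenib. At 7 days they were 1522 ± 142 and 224 ± 4.05, a log2 fold change of -2.76 (SE 0.0663, FDR 7.08e-18), or 6.77-fold lower.

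**Figure D2:**
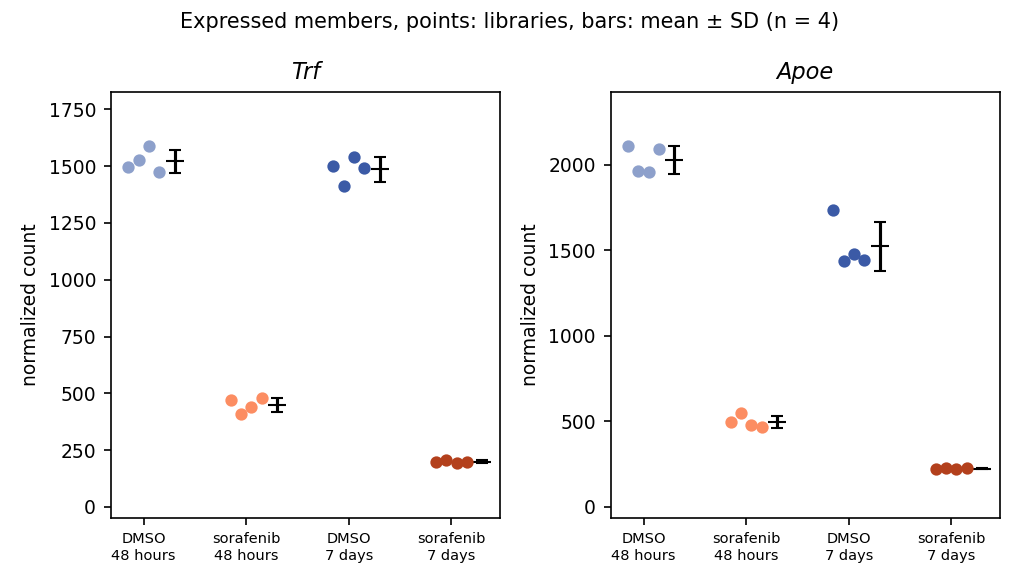
Normalized counts of Trf (left) and Apoe (right) in each library (points) of the 4 groups, with the group mean and SD (bars, n = 4), on linear axes from 0. Both genes sit lowest in sorafenib at 7 days, at 200 ± 5.66 and 224 ± 4.05, and the DMSO groups of Apoe do not overlap, at 2029 ± 82.5 and 1522 ± 142.

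These falls were among the largest of well-counted genes. Of 10646 genes whose mean reached 100 normalized counts, 1.45% had a lower log2 fold change than Trf and 1.03% a lower one than Apoe at 48 hours. At 7 days the shares were 1.25% for Trf and 1.34% for Apoe. The median log2 fold change of all genes tested was -0.05 at 48 hours and 0.02 at 7 days. Called falls of more than 1 log2 unit made up 9.22% of all genes tested at 48 hours and 8.43% at 7 days.

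The fall of both genes was deeper at 7 days than at 48 hours. The response at 7 days minus that at 48 hours was -1.13 for Trf (SE 0.0726, FDR 1.72e-10) and -0.72 for Apoe (SE 0.0912, FDR 2.53e-06), by the interaction term of the same model. Of the 7 tested genes these 2 were called in this comparison, where 36.8% of all genes were called and 21.3% were lower. The parts of this difference were not alike for both. In the DMSO groups Trf had a log2 difference between 7 days and 48 hours of -0.03 (SE 0.0432, FDR 0.565), with a 95% interval from -0.12 to 0.05, whereas Apoe fell by 0.42 on the log2 scale (SE 0.0548, FDR 2.32e-06). In the sorafenib groups both fell with time, Trf by 1.17 (SE 0.0581, FDR 3.31e-12) and Apoe by 1.14 on the log2 scale (SE 0.0727, FDR 1.47e-10). With time, 2 of the 7 members were called in the sorafenib groups and 4 in the DMSO groups, Ttr again among the latter, where 39.7% and 49.4% of all genes were called. Groups of both times did not overlap for 35.8% of all genes with sorafenib and for 50.8% with DMSO.

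In the order of group means, Trf in DMSO at 48 hours and at 7 days were neighbors that overlapped (exact permutation p = 0.429, two-sided). The other neighboring groups of Trf, and all those of Apoe, did not overlap, at an exact permutation p of 0.0286. That is the smallest p that 4 against 4 libraries allow. After Benjamini-Hochberg adjustment over 21 such comparisons the exact permutation test gave 0.0858 for them, which did not pass 0.05. Groups did not overlap for 48% of all genes between sorafenib and DMSO at 48 hours and for 56.8% at 7 days.

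To compare the levels of Trf and Apoe with each other, CPM were divided by the length of each gene's exons in kilobases. In DMSO at 48 hours Apoe stood at 19.9 ± 0.811 and Trf at 10.6 ± 0.347 CPM per kilobase (SD, n = 4), and in DMSO at 7 days at 15 ± 1.39 and 10.4 ± 0.38. With sorafenib they stood at 4.88 ± 0.359 and 3.13 ± 0.224 at 48 hours and at 2.21 ± 0.0398 and 1.4 ± 0.0395 at 7 days. Apoe was the higher one per length in 4 of 4 libraries of each group, by a ratio of 1.88 ± 0.132, 1.57 ± 0.228, 1.44 ± 0.128 and 1.58 ± 0.0503 for the groups in the order DMSO and sorafenib at 48 hours, then DMSO and sorafenib at 7 days. With the length of the canonical transcript these ratios were 1.57, 1.31, 1.21 and 1.33.

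Across the 16 libraries, the 2 genes whose log2 CPM followed Trf most closely among the 10645 others at that level of abundance were Hmgcs1 and Idi1 (Pearson r 0.998 each). For Apoe they were BC055324 and Ptgs1 (r 0.997 each). Apoe ranked 43 for Trf and Trf ranked 54 for Apoe, at an r of 0.99. The libraries share their treatment and time, so these values describe which genes had the same group pattern.

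Among the apolipoproteins of HDL, Apoa2 was a trace and Apoa1, which encodes the main protein of HDL, was near the floor. Apoa2 (chr1:171049125-171053948, plus strand) had 23, 26, 33 and 30 counts in the DMSO libraries of 48 hours and 15, 21, 13 and 20 with sorafenib. At 7 days it had 29, 27, 32 and 22 counts with DMSO and 21, 21, 28 and 17 with sorafenib. The libraries overlapped after normalization at both times, and all 4 groups lay between means of 20.5 and 26.2 normalized counts. The log2 fold change was -0.30 at 48 hours (95% interval -0.79 to 0.19, FDR 0.333) and -0.32 at 7 days (95% interval -0.79 to 0.15, FDR 0.269), and the changes of Trf and Apoe lie outside these intervals. Its exons overlap those of Tomm40l on the other strand in part, and Tomm40l had 493 to 1093 counts per library, so the trace of Apoa2 is uncertain where the counting did not use strand. Exons of Trf, Apoe, Ahsg, Ttr and Apob also overlap in part those of noncoding genes on the other strand. The same limit holds for them. Apoa1 (chr9:46139878-46142212, plus strand) had at most 3 counts in any library and 21 in all, and passed the test in neither comparison with DMSO (FDR 0.255 at 48 hours and 0.299 at 7 days).

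Apob encodes the structural protein of VLDL and LDL particles. It lies at chr12:8027648-8066835 (plus strand), and 6 counts fell on it in all 16 libraries, with at most 2 in any. Alb, at chr5:90608647-90624696 (plus strand), encodes the most abundant plasma protein. Its count was 0 in each of the 8 libraries treated for 48 hours, which allows up to 0.0277 CPM in the DMSO group and up to 0.0361 CPM in the sorafenib group, and 1 count with DMSO and 2 with sorafenib at 7 days. Fgb, at chr3:82947448-82957170 (minus strand), had a single count, in DMSO at 7 days. The 3 genes were too low for a test and were not detectable above the floor in any group, and these limits cover counting error only.

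Afp, at chr5:90638584-90656766 (plus strand), was a trace in DMSO at 7 days only. Its counts with DMSO were 0, 1, 0 and 0 at 48 hours and 11, 5, 10 and 14 at 7 days. With sorafenib they were 0, 0, 1 and 3 at 48 hours and 7, 2, 3 and 4 at 7 days. The DMSO libraries of 7 days were all above those of 48 hours, while the treated and control libraries of 7 days overlapped. In DMSO, Afp rose with time, with 40 counts in the 4 libraries of 7 days and 1 in those of 48 hours. Their ratio was 39.8, with a 95% counting interval from 6.75 to 1610 that covers counting error only. The edgeR model gave a log2 fold change of 4.73 (SE 0.85, FDR 9.46e-05). At 7 days the level with sorafenib was 0.405 of that with DMSO (95% counting interval 0.211 to 0.739), a log2 fold change of -1.27 (SE 0.529, FDR 0.0481). This call was lost with 11 of the 16 libraries left out in turn, where its log2 fold change lay between -1.31 and -0.99 and its FDR between 0.0516 and 0.146, and under DESeq2 (adjusted p 0.0737). It was kept, at values of -1.76 to -1.27, without sorafenib 48 hours replicate 1, 2 or 4, DMSO 7 days replicate 2 or sorafenib 7 days replicate 1. At its highest, with 14 counts, Afp was at 0.517 CPM.

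Ttr, the carrier of thyroxine and of retinol-binding protein, had 4, 2, 2 and 4 counts in DMSO at 7 days and none in the other 12 libraries. Its level in that group was at least 3.96-fold higher than in sorafenib at 7 days and at least 3.98-fold higher than in DMSO at 48 hours, when 3 counts over a group of 4 libraries are taken as the floor. These values are a description, since the gene was tested only because of its counts in that group. Afp and Ttr thus were highest in the same group, DMSO at 7 days, at a few reads per library.

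Ahsg encodes fetuin-A, an inhibitor of mineral deposition in plasma, and was the 1 member that rose with sorafenib. It lies at chr16:22710027-22718201 (plus strand), and its exons overlap in part those of Gm30505 and Gm60715 on the other strand. It had 11, 16, 12 and 16 counts with DMSO and 15, 2, 26 and 23 with sorafenib at 48 hours, where the library with 2 counts is replicate 2. The median gene of chromosome 16 in that library was at 0.65 of the other replicates. Ahsg dropped further there, to 3.02 normalized counts against 21.0, 24.7 and 26.1. At 7 days Ahsg had 5, 8, 5 and 8 counts with DMSO and 11, 21, 13 and 23 with sorafenib, and these groups did not overlap. Normalized means at 7 days were 6.0 ± 1.41 and 15.9 ± 5.15 (SD, n = 4), a log2 fold change of 1.38 (SE 0.41, FDR 0.00693). Leaving out 1 library at a time gave values between 1.18 and 1.52. At 48 hours they were 12.7 ± 1.49 and 18.7 ± 10.7, a log2 fold change of 0.62 (SE 0.356, FDR 0.154), or 0.92 (FDR 0.00572) without sorafenib replicate 2. The difference between the responses at both times was 0.76 (FDR 0.309), so the responses were not shown to differ. In DMSO, Ahsg was lower at 7 days than at 48 hours by a log2 fold change of -1.07 (SE 0.426, FDR 0.0442), a call that was lost, at an FDR of 0.0521 to 0.114, with 10 of the 16 libraries left out in turn. It was kept without sorafenib 48 hours replicate 2, 3 or 4 or sorafenib 7 days replicate 1, 3 or 4. In all groups Ahsg stayed at levels near or under 1 CPM.

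**Figure D3:**
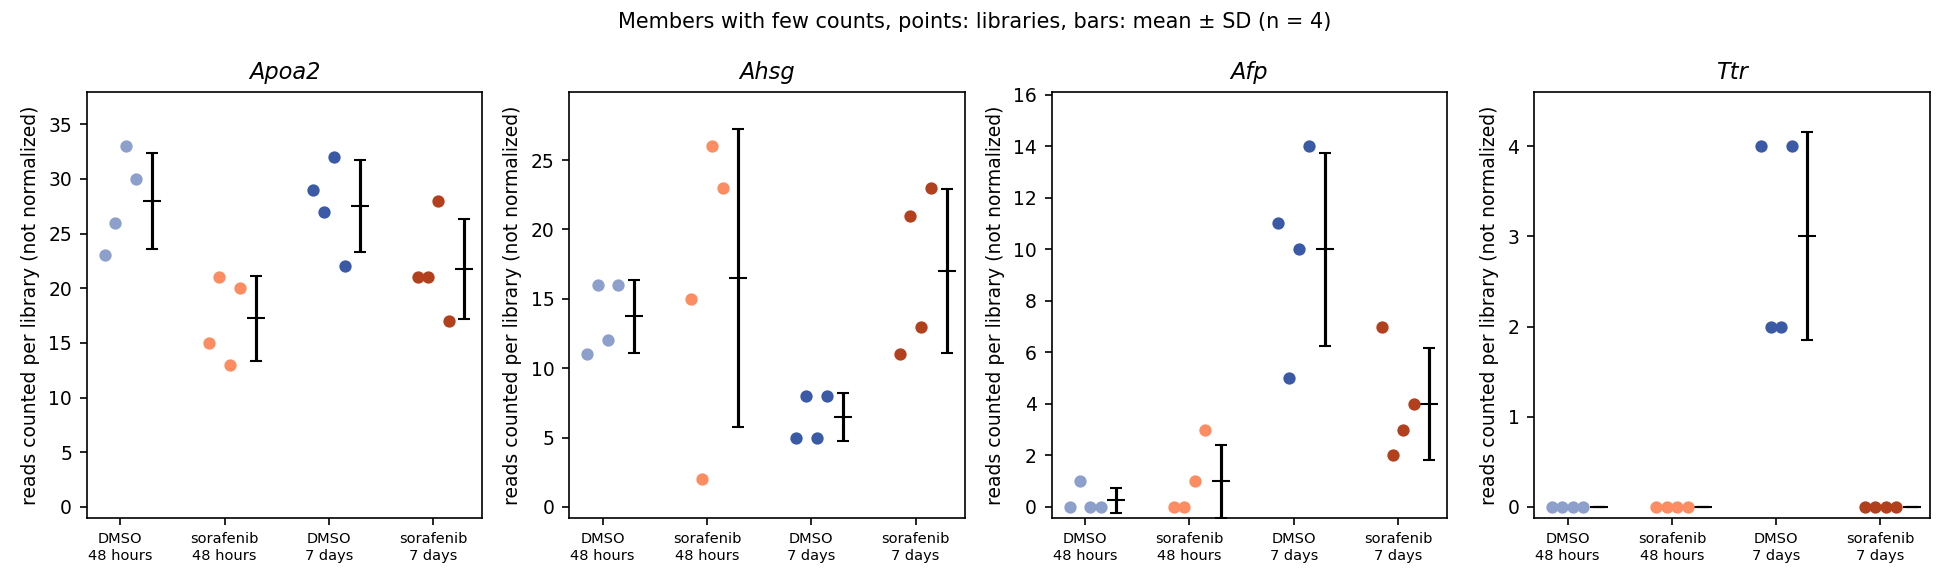
Raw counts of Apoa2, Ahsg, Afp and Ttr in each library (points) of the 4 groups, with the mean and SD (bars, n = 4), each on its own linear axis. Ahsg is higher with sorafenib at 7 days (11 to 23 counts against 5 to 8), and Afp and Ttr are highest in DMSO at 7 days, at 5 to 14 and 2 to 4 counts.

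Of 18 other apolipoproteins and lipoprotein particle proteins, 5 were expressed in at least 1 group (Mttp, Lcat, Lpl, Pltp and Angptl4), and Apoa4, Apoc2, Apoc3, Apoc4 and Apod had no count in any library. Of the 11 tested, 2 rose and 3 fell at 48 hours and 3 rose and 1 fell at 7 days, with median log2 fold changes of -0.41 and -0.03, where all genes tested had -0.05 and 0.02. For this and the other lists, 54.6% of all genes tested were called at 48 hours and 56.8% at 7 days. A list near these shares is no result about the list. Pltp, which transfers phospholipid between lipoproteins, rose from 167 ± 8.78 to 757 ± 34.3 normalized counts at 48 hours (log2 fold change 2.18, FDR 7.34e-17) and from 68.7 ± 7.8 to 577 ± 10.9 at 7 days (3.07, FDR 3.11e-18). Lpl, lipoprotein lipase, rose by a log2 fold change of 1.55 at 48 hours (FDR 5.17e-18) and 1.38 at 7 days (FDR 2.16e-17). Thus Apoe fell where these 2 genes of lipoprotein handling rose. Of the same list, 3 genes fell at 48 hours and 1 at 7 days, as Apoe did.

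Of 17 other fibrinogen chains and coagulation factors, Pros1 alone was expressed in at least 1 group, and not in every group. Of the 17, 8 had no count in any library, Fga and Fgg, the partners of Fgb, among them. Of the 4 tested, 1 rose at each time and 3 did not pass, with medians of -0.21 and 0.80. Of 20 other carriers and acute phase proteins, 4 were expressed in at least 1 group (Rbp4, Hpx, Cp and Itih2), 2 of them in every group. Of the 8 tested, 5 rose and 2 fell at 48 hours and 6 rose and 1 fell at 7 days, with medians of 1.25 and 1.09. Cp, ceruloplasmin, which oxidizes iron for loading onto transferrin, rose from 152 ± 17.6 to 528 ± 32.7 normalized counts at 48 hours (log2 fold change 1.79, FDR 3.34e-14), and from 234 ± 10.6 to 564 ± 21.2 at 7 days (1.27, FDR 1.92e-12). Rbp4, the retinol carrier that binds transthyretin, fell from 171 ± 23.8 to 38 ± 7.92 at 48 hours (log2 fold change -2.18, FDR 1.93e-11, and -2.12 without sorafenib replicate 2). At 7 days Rbp4 rose by 0.34 (FDR 0.0378), and its responses at both times differed by 2.51 (FDR 2.35e-09). Itih2, a chain of inter-alpha-trypsin inhibitor, went from 5.65 ± 2.81 to 232 ± 17.7 at 7 days (5.35, FDR 2.63e-15).

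Of 18 complement proteins, 17 matched by symbol and 9 were expressed in at least 1 group. C5 is in the matrix under its mouse symbol Hc, which was not in the list and had 23 counts in all libraries. Of the 11 tested, 5 rose and 3 fell at 48 hours, with a median log2 fold change of 0.73, and 2 rose and 5 fell at 7 days, with a median of -0.62. C1s1 and C1ra, the proteases of the first component, rose at 48 hours by 2.09 (FDR 1.46e-15) and 1.26 (FDR 7.39e-09), and both fell at 7 days, C1s1 by 0.80 (FDR 2.94e-09) and C1ra by 0.96 on the log2 scale (FDR 1.45e-07). C3, the central component, fell from 469 ± 33.4 to 68.8 ± 11.4 normalized counts at 7 days (log2 fold change -2.77, FDR 1.99e-12).

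The receptors that take up these proteins were mostly expressed, 9 of 13. Of the 12 tested, 4 rose and 6 fell at 48 hours and 5 rose and 6 fell at 7 days, with medians of -0.15 and -0.20. Vldlr and Lrp8, receptors of Apoe, rose by 2.01 (FDR 2.96e-12, and 2.15 without sorafenib replicate 2) and 1.37 (FDR 7.61e-16) at 48 hours, and Vldlr by 2.63 (FDR 7.65e-14) at 7 days. Tfrc, the receptor of transferrin, had a log2 fold change of -1.95 at 48 hours, or -1.81 without sorafenib replicate 2, where Trf had -1.76. At 7 days Tfrc had -0.75 and Trf -2.89, and the response at 7 days minus that at 48 hours was 1.19 for Tfrc (FDR 3.54e-07) and -1.13 for Trf. Fcgrt, the Fc receptor that also recycles albumin, went from 484 ± 8.62 to 175 ± 25 at 48 hours (-1.48, FDR 5.16e-11).

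**Figure D4:**
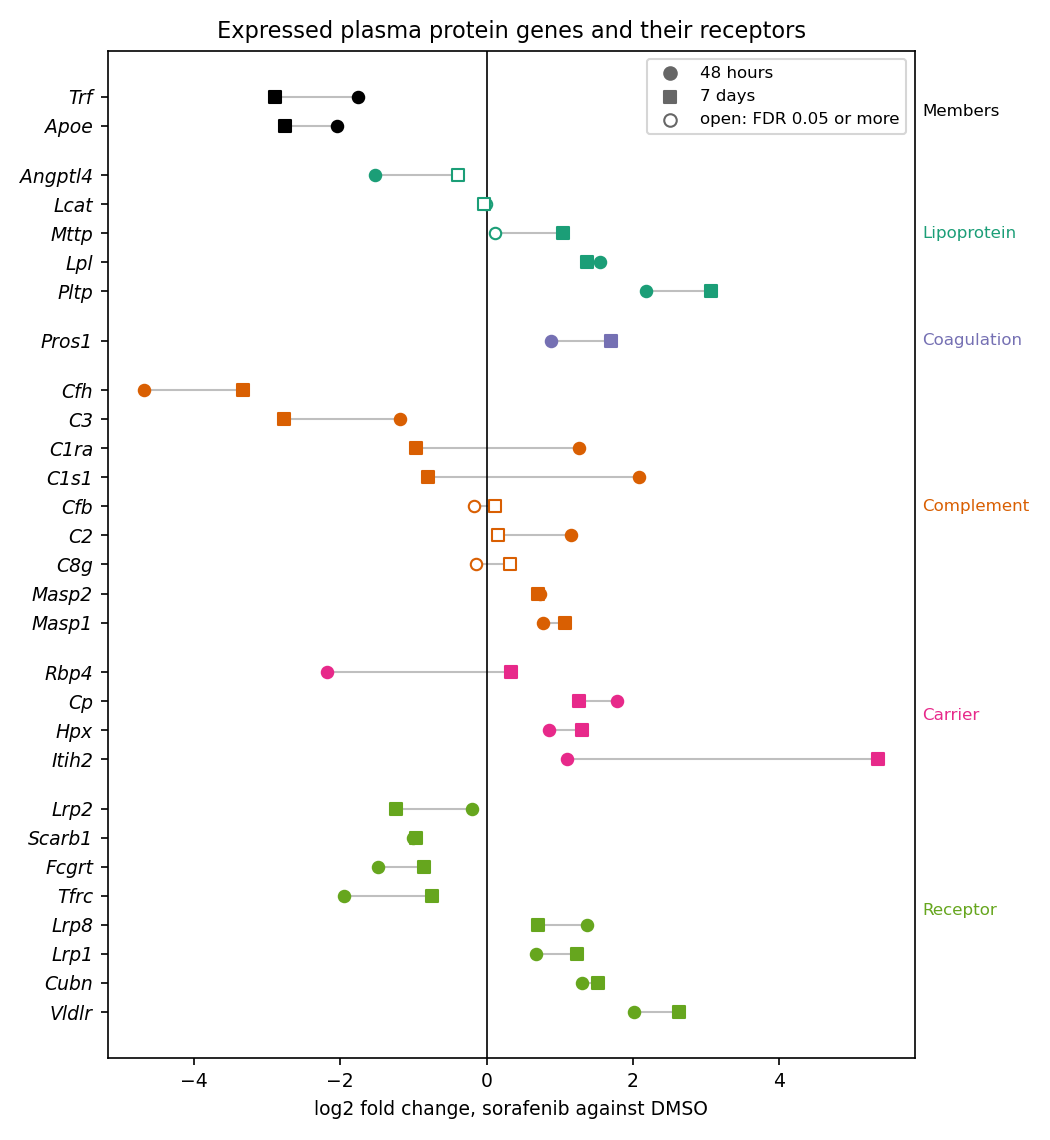
Log2 fold change of sorafenib against DMSO at 48 hours (circles) and 7 days (squares) for Trf and Apoe and for expressed genes of the other lists, with open symbols where the FDR was 0.05 or more. Trf and Apoe lie on the left at both times, at -1.76 and -2.89 and at -2.04 and -2.76, and the other lists have genes on both sides of 0.

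Of 19 transcription factors of the liver, 10 were expressed, among them Foxa2, Cebpa, Gata4 and Gata6, and Hnf4a had no count in any library. Of the 15 tested, 6 rose and 3 fell at 48 hours and 7 rose and 4 fell at 7 days, with medians of 0.38 and 0.58. Zhx2, a repressor of Afp in the adult liver, rose from 170 ± 28.3 to 583 ± 132 normalized counts at 48 hours (log2 fold change 1.78, FDR 7.12e-10, and 1.92 without sorafenib replicate 2) and from 176 ± 19.9 to 807 ± 24 at 7 days (2.20, FDR 1.31e-11). Gata4 fell by 0.99 at 48 hours (FDR 6.46e-15) and by 1.16 on the log2 scale at 7 days (FDR 5.03e-16). Of the FOXA and C/EBP families, Foxa2 and Cebpa were among the factors that rose at both times, and Cebpb fell at 7 days.

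Markers of several cell types moved with the treatment in the same libraries in which Trf and Apoe fell. Of all genes tested, 26.9% rose and 27.7% fell at 48 hours, and 28.9% rose and 27.9% fell at 7 days. Of the 7 hepatoblast markers tested, 5 fell at 48 hours, and 6 fell and 1 rose at 7 days, where 1 of the 6 is Afp, with the call described as lost when libraries were left out. Their summed level was 2000 to 2060 CPM in DMSO and 750 to 873 CPM with sorafenib at 48 hours, and 1000 to 1100 and 339 to 350 CPM at 7 days. Mesenchymal and stellate cell markers summed to 5530 to 5650 CPM in DMSO and 9230 to 9750 with sorafenib at 48 hours, and to 5760 to 5950 and 7680 to 7820 at 7 days. Of their 8 tested genes, 5 rose and 2 fell at 48 hours and 5 rose and 3 fell at 7 days, and Lrat was at 0 in every library. Acta2 was up by 3.81 at 48 hours (FDR 2.4e-17, and 3.93 without sorafenib replicate 2). Col3a1 had a log2 fold change of -0.61 at 48 hours (FDR 5.99e-12) and of -2.13 at 7 days (FDR 4.22e-20). Mature hepatocyte markers went from 1.24 to 1.86 CPM in DMSO to 29.0 to 33.8 with sorafenib at 48 hours, and from 2.54 to 4.1 to 30.6 to 33.2 at 7 days. Of these 12 markers only Ass1 was expressed, and it went from 31.7 ± 3.22 to 762 ± 45.9 normalized counts at 48 hours (log2 fold change 4.58, FDR 5.53e-18) and from 69.9 ± 15.4 to 773 ± 31.3 at 7 days (3.45, FDR 3.56e-17). Of the 4 tested, 2 rose at each time, 8 were too low for a test, and G6pc and Cyp3a11 were at 0.

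Bile duct cell markers summed to 187 to 198 CPM in DMSO and 118 to 126 with sorafenib at 48 hours, and to 220 to 235 and 96.6 to 106 at 7 days. Of the 6 tested, 3 rose and 3 fell at 48 hours and 2 rose and 4 fell at 7 days. Visceral endoderm cells also make Afp, Ttr and apolipoproteins, and their markers summed to 128 to 136 CPM in DMSO and 109 to 137 with sorafenib at 48 hours, and to 189 to 203 and 90.8 to 95.9 at 7 days. Of the 5 tested, 1 rose and 1 fell at 48 hours and 1 rose and 2 fell at 7 days. Of these markers, Cubn and Lrp2 were expressed in every group, and Sox17 was at 0 in every library. Endothelial markers summed to 2.33 to 3.98 CPM in DMSO and 4.93 to 6.38 with sorafenib at 48 hours, and to 1.68 to 2.85 and 8.28 to 9.4 at 7 days, with no overlap at either time. Of the 5 tested, 2 rose and 1 fell at each time, and Kdr, the only one expressed, rose by 2.65 at 7 days (FDR 1.08e-12). Blood and macrophage markers summed to 3.01 to 3.5 CPM in DMSO and 2.46 to 3.57 with sorafenib at 48 hours, and to 4.99 to 6.24 and 2.99 to 3.46 at 7 days. The 2 tested genes were expressed, Cd68 in every group and Csf1r in at least 1 group, and Csf1r was lower with sorafenib at 7 days. Adgre1, Clec4f and Hba-a1 were at 0 in every library. The part of these marker changes in the fall of Trf and Apoe was not tested.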

How the data were processed

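RNA was sequenced from 16 libraries of cultured mouse cells, prepared by the authors with a stranded mRNA kit. The deposited values are raw counts per gene with no normalization or gene filter. The submitters' processing notes name STAR 2.7.1a and featureCounts 2.0.6 (Subread), with GRCm39, and DESeq2 1.40.2. The strand setting and gene annotation were not given in the sources used here, so positions are those of GENCODE vM39. Groups came from the labels.

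The 20444 genes with 10 or more counts in total were analysed with edgeR 4.0.16 (R 4.3.3). Library sizes were scaled by TMM, the 4 groups were fitted in 1 quasi-likelihood model, with calls at an FDR (Benjamini-Hochberg, over all genes tested) under 0.05. Normalized counts are counts divided by the effective library size and set to the mean library. The log2 CPM compared across the 16 libraries used a prior count of 2, and fitted fold changes used the default of edgeR. Raw counts per library were 16586254 to 30828427, and 3 counts were taken as the floor. Checked on simulated counts for the 48-hour comparison (20078 genes), the test called 200 of 200 well-counted genes and 67 of 200 genes at a low level that were changed 2-fold, with 11 false calls. Only these genes were changed there, in sorafenib at 48 hours, and no library had a shifted block of chromosomes. In the data 54.6% of genes were called, so these false calls do not measure those of the data. Levels between neighboring groups were compared by exact permutation tests.

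The members and lists were chosen with earlier results of these data known. Genes of the other lists with printed fold changes were taken from the 2 largest rises and 2 largest falls per list and time. Only called genes averaging 100 or more normalized counts entered this choice. Not every gene that met the rule is named, so the named genes are a selection. Some genes at 0 in every library are also named, as are the 2 genes most like each expressed member. Some genes of these lists enter the counts but are not reported here. Alternatives were DESeq2 1.42.0, other size factors, other filters, the replicate block, 8 libraries per fit and each library left out.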

Additional observations from a re-analysis of the deposited data

Results flagged for a closer look

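The fall of Trf and that of Apoe with sorafenib differed between the times by the interaction term of the edgeR model: the response at 7 days minus that at 48 hours was -1.13 on the log2 scale for Trf (FDR 1.72e-10) and -0.72 for Apoe (FDR 2.53e-06), and each of the 4 treated libraries was below each of the 4 controls at both times. In DMSO at 7 days, replicate 1 of Apoe, at 1733 normalized counts, stood far above the other 3 (1439, 1475 and 1441). The gap was 0.877 of the group's range, above Dixon's 95% critical value for 4 samples. Of 19 sets of 4 libraries tested in this way, this was the only one, and chance gives about 1 in 20.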

How the results depend on the processing

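Trf and Apoe kept the direction and the call of both falls, of the interaction and of the fall with time in sorafenib under every alternative run. The count of called members at 7 days was 5, but 2 with at least 10 counts required in every sample, which leaves Trf, Apoe and Apoa2 to be tested, and 3 with DESeq2, and leaving out 1 library at a time gave 3 to 5 (3 without DMSO 7 days replicate 1 or 4). With time in DMSO it was 4, but 1 under the same filter, and 2 to 4 when 1 library was left out (2 without DMSO 7 days replicate 1 or 4). The calls of Afp at 7 days and of Ahsg with time in DMSO were also lost with no filter beyond 1 count (FDR 0.0635 and 0.0577). The replicate numbers are shared by label only. Deviations of same-numbered libraries from their group means had r from -0.0497 to 0.0144 at 48 hours and from -0.00564 to 0.128 at 7 days. For libraries of different numbers r was -0.0401 to 0.0742 at 48 hours and -0.167 to 0.115 at 7 days. The highest value at 7 days, 0.128, was thus a same-numbered pair, and a weak sharing at that time is not excluded. A fit with a replicate block called 10644, 11027, 6987, 9669 and 7572 genes, against 11158, 11613, 7515, 10100 and 8120, in the order sorafenib at 48 hours, at 7 days, their difference, and time in DMSO and in sorafenib. Among the members it changed the call of Afp at 7 days (FDR 0.0659). Scaling by total counts moved the median of all genes at 48 hours from -0.05 to -0.12. Without a length correction the ratio of Apoe to Trf was 1.34, 1.12, 1.02 and 1.12, and Apoe was then the higher one in 3 of 4 libraries of sorafenib at 48 hours (lowest ratio 0.979) and in 2 of 4 of DMSO at 7 days (lowest ratio 0.958). No log2 fold change reversed. At this depth a gene with a few counts per library could be tested for large changes only, and 3 of the 10 genes could not be tested.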
